A study of Drosophila melanogaster with 40 samples.

Results

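GAF and Zelda (ZLD) were compared as occupants of the same early embryonic genome. The comparison rests on 4 lists of ChIP-seq peaks from wild-type embryos at 0.5 to 1.5 h, out of 14 samples with a peak list and 40 samples in all. GAF was precipitated in 2 replicates and Zelda in 2 replicates, each with a mouse antibody to the endogenous protein, from 50 mg of hand-selected embryos per replicate. The wild-type embryos came from the w1118 strain, which carries an allele of white, and no transgene or treatment is given for them. The members were taken by their labels alone. Peaks called in both replicates with a reciprocal overlap of at least 20% were joined into consensus regions, which gave 4980 GAF regions and 2680 Zelda regions. Further lists, of 2 replicates each, served only for side comparisons. They came from the same stage and hold GAF and Zelda in M-Z+ dPCIF1 mutant embryos, which lacked the maternal dPCIF1 contribution and carried a zygotic one, and dPCIF1, HIRA and RNA polymerase II phosphorylated at serine 5 (RNA Pol II-Ser5P) in wild-type embryos. A list gives the chromosome, start and end of each peak and neither a height nor a summit, so the depth behind a peak is unknown, and a region without a called peak is not shown to be unbound.

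Both proteins are pioneer factors, which can bind their sites on DNA wrapped in nucleosomes and open chromatin for other factors. GAF, encoded by Trl, binds runs of alternating G and A through a zinc finger and is best known from heat shock promoters, from promoters with paused RNA polymerase II and from Polycomb response elements. Zelda is a maternally supplied zinc finger protein that binds TAGteam sites, of which CAGGTAG is the canonical form, and is required for activation of the first zygotic genes. Whether both factors mark the same places, and what differs between the places that only 1 of them marks, was examined here by sequence, position and neighbouring genes.

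Sequences from 3 classes of region are shown first, so that the motifs counted later can be seen in place. A shared region was a GAF region that overlapped a Zelda region by at least 20% of both widths, and a region of 1 factor alone touched no peak of the other factor in either replicate. In each class the 2 regions with the most motif occurrences in the 200 bp around the midpoint are given, as examples chosen for their motifs and not as typical members. Capitals mark GAGAG and CAGGTA on either strand, and every overlapping occurrence was counted. Coordinates are those of dm6, with sequence from the RefSeq copy of that build, plus strand, 5′ to 3′. The first shared region lay 106 bp from the TSS of dib, which encodes a cytochrome P450 of ecdysone synthesis, and a GAGAG and a CAGGTA overlap in it. The second lay in an intron of CG33158.
Shared, chr3L:4062086-4062285: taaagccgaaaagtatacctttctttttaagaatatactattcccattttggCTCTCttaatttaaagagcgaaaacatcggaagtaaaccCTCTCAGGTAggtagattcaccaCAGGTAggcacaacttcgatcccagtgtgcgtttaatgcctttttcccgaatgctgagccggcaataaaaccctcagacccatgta
Shared, chr3L:16489415-16489614: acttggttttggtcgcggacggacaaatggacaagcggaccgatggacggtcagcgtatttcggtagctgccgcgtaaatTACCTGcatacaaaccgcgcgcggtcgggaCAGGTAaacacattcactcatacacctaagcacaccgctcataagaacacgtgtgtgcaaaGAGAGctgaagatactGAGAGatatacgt

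The regions of GAF alone with the most GAGAG among those considered each held 21 overlapping occurrences and no CAGGTA. One lay in an intron of Ten-a, a teneurin gene of synaptic partner matching, and the other was intergenic, 4148 bp from the nearest TSS. In both, most occurrences form 1 long dinucleotide run.
GAF alone, chrX:12090535-12090734: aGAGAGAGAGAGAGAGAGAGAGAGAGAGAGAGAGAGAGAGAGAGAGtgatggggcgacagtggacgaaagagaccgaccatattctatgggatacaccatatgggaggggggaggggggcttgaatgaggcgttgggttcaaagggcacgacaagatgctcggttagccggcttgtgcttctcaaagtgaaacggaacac
GAF alone, chr3R:25783050-25783249: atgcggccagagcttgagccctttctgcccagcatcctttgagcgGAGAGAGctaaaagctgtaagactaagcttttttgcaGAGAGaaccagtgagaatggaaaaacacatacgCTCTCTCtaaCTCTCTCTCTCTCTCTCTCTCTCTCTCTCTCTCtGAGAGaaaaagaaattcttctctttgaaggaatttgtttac

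The regions of Zelda alone with the most CAGGTA among those considered held 3 occurrences each and no GAGAG. One lay 117 bp from the TSS of bnk (bottleneck), a gene of actin organisation during cellularisation that is expressed from the early zygotic genome, at a place that is also an intron of mesh. The other lay in an intron of pdm2, which encodes a POU domain transcription factor. All 3 sites next to bnk stand apart from each other, where those in pdm2 lie close together near one end of the window.
Zelda alone, chr3R:31193145-31193344: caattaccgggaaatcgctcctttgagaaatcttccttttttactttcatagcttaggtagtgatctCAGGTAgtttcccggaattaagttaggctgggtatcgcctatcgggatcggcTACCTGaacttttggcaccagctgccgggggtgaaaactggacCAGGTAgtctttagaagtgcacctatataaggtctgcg
Zelda alone, chr2L:12662938-12663137: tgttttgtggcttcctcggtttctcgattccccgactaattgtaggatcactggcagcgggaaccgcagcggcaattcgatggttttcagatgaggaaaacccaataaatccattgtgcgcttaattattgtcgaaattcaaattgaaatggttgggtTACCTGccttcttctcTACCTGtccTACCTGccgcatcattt

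GAF peaks lay nearer to genes' starts than Zelda peaks, and were wider. The median distance from a peak's midpoint to the nearest TSS was 973 and 992 bp in the GAF replicates, against 2245 and 1839 bp in the Zelda replicates. A promoter (1 kb to either side of a TSS) was touched by 57.3% and 56.6% of GAF peaks and by 39.4% and 44.0% of Zelda peaks. Both measures separated the GAF lists from the Zelda lists without overlap. Peaks within 250 bp of a TSS made up 28.0% and 28.6% of the GAF lists and 17.4% and 19.9% of the Zelda lists, and peaks more than 5 kb away made up 18.2% and 18.5% against 32.8% and 28.5%. The midpoint was intronic in 46.7% and 46.6% of GAF peaks, against 41.5% and 41.3% of Zelda peaks. It was intergenic in 32.3% of the peaks of either GAF replicate, against 42.1% and 42.4% of Zelda peaks. A 5′ UTR held the midpoint of 11.7% and 11.3% of GAF peaks and of 6.88% and 7.94% of Zelda peaks.

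The median GAF peak was 678 and 630 bp wide in the 2 replicates, against 489 and 520 bp for Zelda. The upper tails lay further apart than the medians. Peaks over 2 kb numbered 891 and 879 in the GAF lists (14.6% and 13.7%) and 149 and 125 in the Zelda lists (3.08% and 3.27%). The widest GAF peaks spanned 27578 and 22348 bp, and the widest Zelda peaks 7068 and 7433 bp. In sum the GAF lists covered 7.30 and 7.38 Mb and the Zelda lists 3.22 and 2.69 Mb. Width can follow from the fragment density that the peak caller joins, and its relation to depth was not tested.

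**Figure D1:**
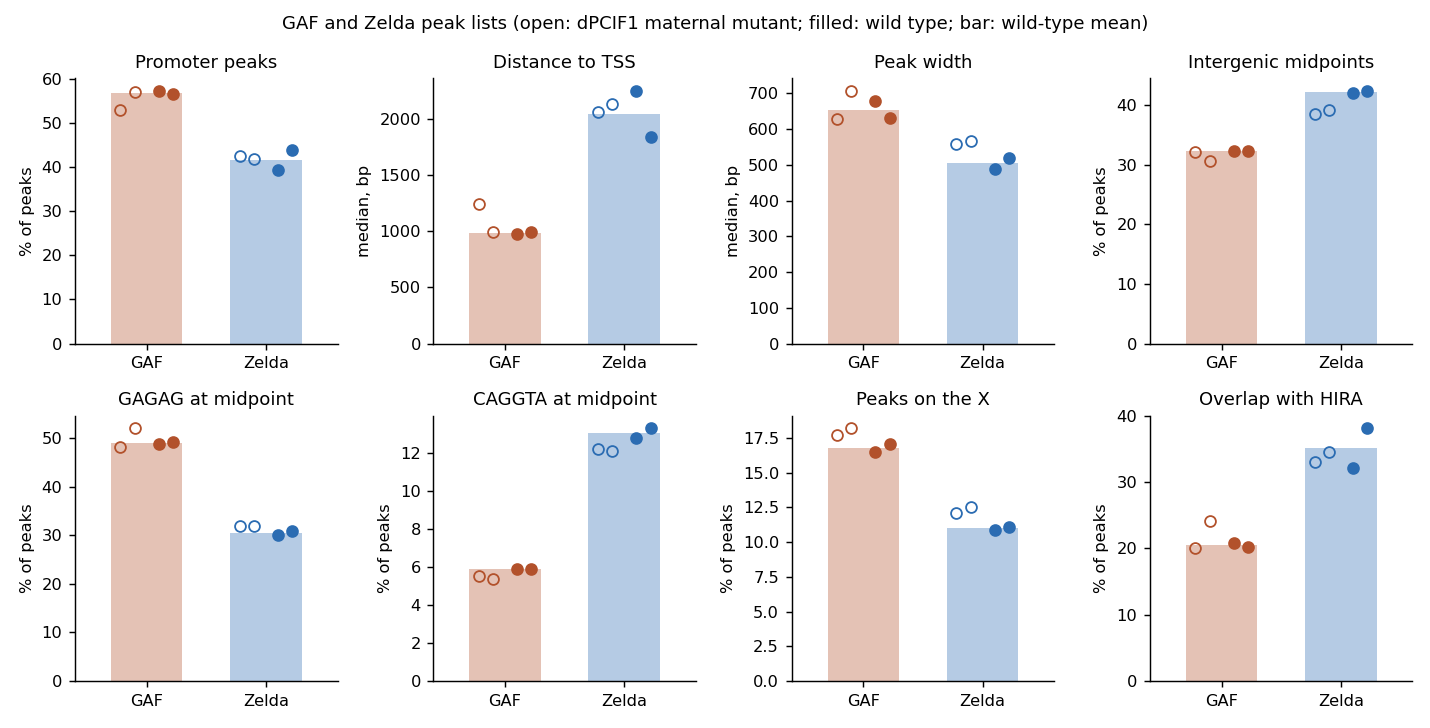
Measures of each peak list, with GAF on the left and Zelda on the right of each panel; vertical axes give the percent of peaks or the median in bp. Open points are the 2 lists of M-Z+ dPCIF1 mutant embryos, filled points the 2 wild-type lists, and bars the wild-type means; in all 8 panels the 4 GAF points lie on one side of the 4 Zelda points.

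In the wild type, 11 of 13 measures separated the 2 GAF lists from the 2 Zelda lists. An exact permutation test over lists (two-sided) gave p = 0.33 for each of these (0.394 after Benjamini-Hochberg adjustment over the 13), which is the smallest p that 2 lists against 2 allow, so none can pass the threshold. With the mutant lists added, as 4 lists against 4, 10 measures had an adjusted p of 0.0371 (exact permutation test, p = 0.0286, the smallest possible). These 10 were the number, width, TSS distance and promoter, intron, intergenic and X shares of peaks, both motif shares, and overlap with HIRA. The promoter share was then 56.0% ± 2.02 for GAF and 41.9% ± 1.96 for Zelda (SD, n = 4 lists each). This test treats lists of different genotype as exchangeable. GC content around midpoints did not separate the factors in the wild type (42.0% and 42.4% for GAF, 42.3% and 42.8% for Zelda), and neither did overlap with RNA Pol II-Ser5P.

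The X chromosome carried unequal shares of the peaks of the 2 factors. It held 16.5% and 17.1% of GAF peaks and 10.9% and 11.1% of Zelda peaks. Per Mb, the GAF lists had 42.3 and 46.5 peaks on the X and 45.7 and 47.9 on the 4 large autosomal arms, which is a ratio of 0.926 and 0.970. The Zelda lists had 22.1 and 17.7 peaks per Mb on the X and 38.4 and 30.4 on the autosomal arms, a ratio of 0.575 and 0.583. GAF was thus about as dense on the X as elsewhere, and Zelda was sparser there. In the other wild-type lists the ratio was 0.577 and 0.553 for dPCIF1, 0.611 and 0.606 for RNA Pol II-Ser5P and 0.785 and 0.735 for HIRA, so both GAF lists stood above the remaining 8 lists. The sequence of the X held GAGAG at 1.71 per kb, against 1.54 on the autosomal arms, and CAGGTA at 0.225 per kb, against 0.248. The part of motif density in the result was not tested.

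Each factor's motif was more frequent in its own peaks. GAGAG stood within 100 bp of the midpoint in 48.8% and 49.3% of GAF peaks and in 30.1% and 30.9% of Zelda peaks. CAGGTA did so in 5.89% and 5.92% of GAF peaks and in 12.8% and 13.3% of Zelda peaks. Windows placed 2 kb to either side of the midpoints held GAGAG at 22.8% for both GAF lists and at 22.7% and 22.8% for the Zelda lists, and CAGGTA at 5.08% and 4.82% for GAF and 4.87% and 5.53% for Zelda. Of all 668175 windows of 200 bp on the chromosome arms, 21.4% held GAGAG and 4.58% held CAGGTA. In GAF peaks CAGGTA was close to its level in the flanks, whereas Zelda peaks held GAGAG more often than theirs.

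That excess of GAGAG in Zelda peaks lay in the regions where GAF was also called. Zelda regions alone (1082, or 40.4% of the Zelda regions) held GAGAG in 20.7%, against 19.3% of their flanking windows. Zelda regions that overlapped a GAF region (1050, or 39.2%) held it in 40.1%, against 23.3% of flanking windows. The remaining 548 Zelda regions held it in 41.6%. They touched a GAF peak of at least 1 replicate but did not overlap a GAF consensus region by the rule. CAGGTA was present in 17.6% of Zelda regions alone and in 12.8% of those with GAF. The longer CAGGTAG was found in 10.1% and 6.29% of these 2 sets, and in 1.09% of all windows of the same length.

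On the GAF side, 1021 regions (20.5%) overlapped a Zelda region and 3220 (64.7%) were GAF alone. GAGAG was at the midpoint of 44.1% of the shared regions and 56.5% of the regions of GAF alone. CAGGTA was at the midpoint of 13.1% of the shared regions and 3.48% of the regions of GAF alone, where flanking windows held it in 4.63%. The 7-letter GAGAGAG was present in 12.9% and 27.2% of these 2 sets, in 1.57% of Zelda regions alone and in 2.43% of all windows. Only 5.88% of shared regions had both motifs within 100 bp of the midpoint, and 48.7% had neither. The classes were defined by peaks and not by motifs, and regions are not replicates, so these shares are given without a test.

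**Figure D2:**
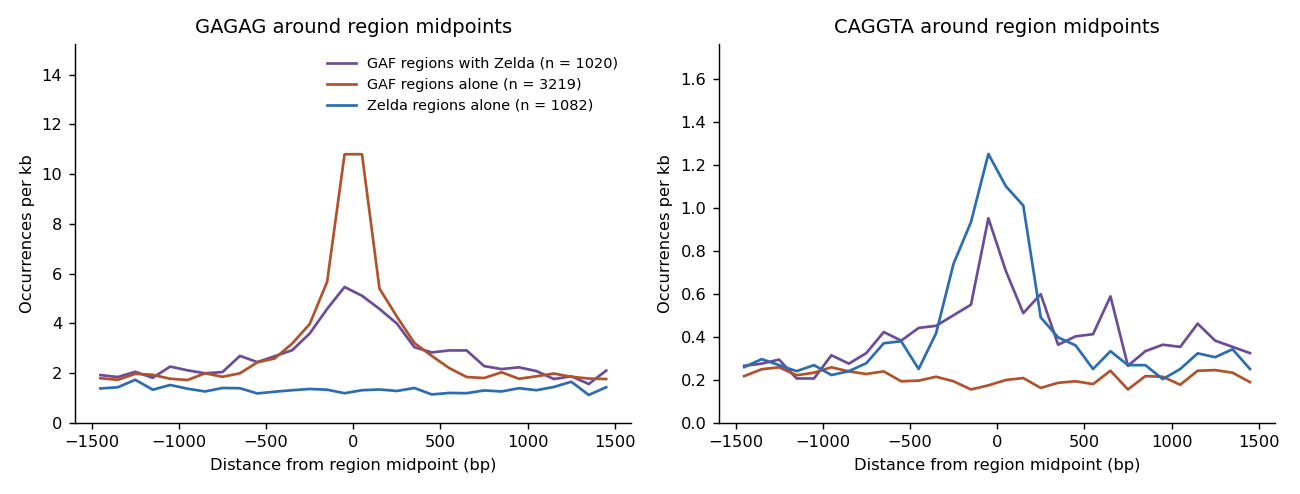
Occurrences per kb of GAGAG (left) and CAGGTA (right) by distance from the region midpoint in bp, in bins of 100 bp; lines are shared GAF regions, regions of GAF alone and regions of Zelda alone. GAGAG reaches 10.8 per kb at the centre of GAF alone regions and is at 1.19 and 1.31 per kb at the centre of Zelda alone regions, where CAGGTA reaches 1.25 per kb.

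GAGAG density formed a narrow peak at the midpoints of GAF regions, and CAGGTA density a broader rise at those of Zelda regions. In the GAF consensus regions GAGAG occurred 10.6 and 10.4 times per kb in the 50 bp bins on either side of the midpoint and 1.81 times per kb near 2 kb away. In Zelda consensus regions CAGGTA occurred 1.13 and 0.859 times per kb in those bins and 0.321 times per kb near 2 kb away. In the bins centred 125 bp to either side it still occurred 0.934 and 0.994 times per kb. GAF regions of different width differed in the share and density of GAGAG. From the narrowest to the widest quartile of GAF regions, GAGAG stood at the midpoint in 65.5%, 57.3%, 43.5% and 40.4%, and its density over the whole region was 7.57, 5.63, 4.71 and 4.44 per kb. As the midpoint of a wide region need not be its summit, the density over the region is given as well, and it also declined with width. Where motifs gather at 1 place, such a density falls as a region lengthens, so it does not give the number of GAGAG per region. The share that touched a promoter was 50.7%, 53.5%, 63.9% and 80.2% in the same order. In Zelda regions, CAGGTA stood at the midpoint in 13.1%, 18.7%, 17.7% and 10.4% from narrowest to widest, with no steady order.

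A search of all hexamers (each counted with its reverse complement) found other short sequences that differed between the lists. A hexamer was counted as higher in 1 factor where its share of midpoint windows was above both lists of the other factor and at least 1.5 times as high on average. Of all hexamers, 29 (1.39%) were higher in GAF lists and 70 (3.37%) in Zelda lists. Of the 29, 8 contained GAGAG, and AGAGAG was present in 34.0% and 34.2% of GAF peaks against 14.6% and 15.5% of Zelda peaks. The largest ratio belonged to AAGCTC, at 7.65% and 8.06% in GAF peaks against 3.55% and 2.83% in Zelda peaks, which contains no GAGAG. In the mutant lists its log2 ratio was 0.56, where it was 1.30 in the wild type. Of the 70, CAGGTA was second, with a log2 ratio of -1.15, behind GGGACC at -1.17. GGGACC was present in 1.81% and 1.89% of GAF peaks and 4.40% and 3.90% of Zelda peaks. Only 3 of the 70 contained AGGTA, the core of the TAGteam site. In the mutant lists, 19 of the 29 and 54 of the 70 also differed by at least 1.5 times on average.

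The geometry of the shared regions was measured next. Among the 1021 GAF regions with a Zelda region, the median distance between the 2 midpoints was 169 bp (quartiles 68.0 and 458 bp), and 34.1% lay within 100 bp. The overlap rule itself limits this distance, so it is a description of the pairs. The GAF region was the wider one in 63.1% of these pairs. In pairs of single lists, 21.9% ± 1.38 of GAF peaks overlapped a Zelda peak, and 32.5% ± 2.73 of Zelda peaks overlapped a GAF peak (SD over 4 pairs of lists, which share lists). Between the GAF replicates, 83.7% of the peaks of replicate 1 and 79.5% of those of replicate 2 overlapped the other list. For Zelda these shares were 56.6% and 71.9%, so Zelda peaks were repeated less often between replicates. The overlap was also taken by place. At promoters 21.1% of GAF regions and 51.6% of Zelda regions overlapped the other factor, and away from promoters 19.5% of GAF regions and 28.1% of Zelda regions did. The median shared region was 1237 bp wide, that of GAF alone 754 bp and that of Zelda alone 692 bp.

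The classes also differed in where they lay. Shared regions were a median of 805 bp from a TSS, regions of GAF alone 732 bp and regions of Zelda alone 3527 bp. A promoter was touched by 63.9% of shared regions, 60.1% of regions of GAF alone and 325 of the 1082 regions of Zelda alone, and the midpoint was intergenic in 35.6%, 31.7% and 51.4%. The X held 20.4% of the regions of GAF alone, 11.6% of the shared ones and 10.7% of the regions of Zelda alone. Most shared regions were also called in the mutant: 89.3% overlapped a mutant GAF region, and 83.8% a mutant Zelda region. Of regions of GAF alone, 70.5% overlapped a mutant GAF region and 2.30% a mutant Zelda region. Of regions of Zelda alone, 4.25% overlapped a mutant GAF region and 71.1% a mutant Zelda region. The lack of a call for the second factor was thus mostly repeated in lists that had not been used to define the classes. This does not show that the second factor was unbound there.

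The other proteins profiled in wild-type embryos were used as a further measure of place. HIRA is the chaperone that deposits the histone variant H3.3. HIRA consensus regions were met by 20.8% and 20.2% of GAF peaks and by 32.1% and 38.1% of Zelda peaks. dPCIF1 regions were met by 22.2% and 21.4% of GAF peaks and by 24.2% and 28.6% of Zelda peaks. With 4 lists against 4, dPCIF1 overlap had an adjusted p of 0.0619 (exact permutation test), and it reversed, to 2.00 percentage points higher for GAF, when each list was limited to its 3817 widest peaks. RNA Pol II-Ser5P regions were met by 40.1% and 38.1% of GAF peaks and by 34.2% and 39.3% of Zelda peaks, and these lists overlapped. Without replicate 1 of Zelda the difference was -0.169 percentage points, and with an overlap of 1 bp it was -7.44 percentage points, with the GAF share lower in both cases.

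Shared regions stood out by their company. HIRA was found at 63.6% of shared regions, at 7.39% of regions of GAF alone and at 22.5% of regions of Zelda alone. dPCIF1 was found at 52.2%, 13.6% and 10.7% of the 3 classes, and RNA Pol II-Ser5P at 72.9%, 31.8% and 32.3%. Regions that touched a peak of the other factor without meeting the overlap rule had shares in between. Of these, 739 were GAF regions and 548 Zelda regions. HIRA was found at 35.3% and 56.8% of them, dPCIF1 at 39.6% and 46.2%, and RNA Pol II-Ser5P at 65.0% and 52.4%. As shared regions were wider, the same shares were taken for regions of 500 to 1000 bp only. There HIRA was found at 56.5% of 292 shared regions, 5.54% of 1391 regions of GAF alone and 16.8% of 560 regions of Zelda alone. Away from promoters it was found at 48% of shared regions, 2.18% of regions of GAF alone and 19.6% of regions of Zelda alone. In each of these subsets the share was lower for GAF alone than for Zelda alone, which is a description of the regions, as the difference was not tested. GAF, Zelda and HIRA are separate libraries, and places where many proteins are called in ChIP-seq were not separated from the rest.

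**Figure D3:**
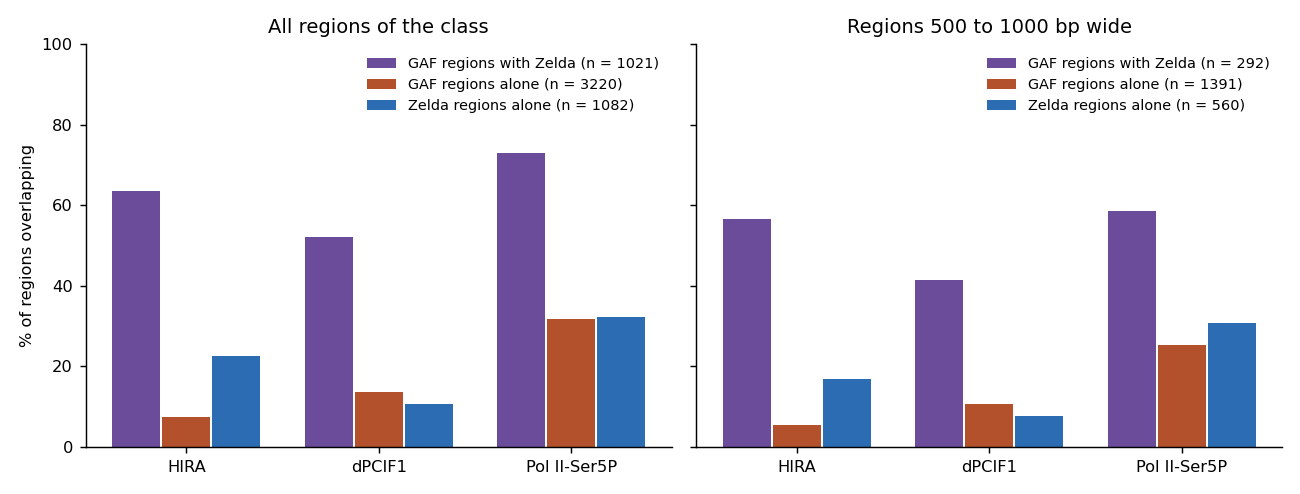
Percent of regions that overlap a consensus region of HIRA, dPCIF1 or RNA Pol II-Ser5P, for all regions of a class (left) and for regions 500 to 1000 bp wide (right); bars are shared GAF regions, GAF alone and Zelda alone. The shared bars are the highest in all 6 groups, and for HIRA the GAF alone bar is below the Zelda alone bar, at 7.39% against 22.5% on the left.

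Genes were then assigned by consensus regions within 1 kb of a TSS. Of 18315 annotated genes, 21.8% had a GAF region and 9.19% a Zelda region. Both factors were at 1132 genes (6.18%), GAF alone at 2860 (15.6%) and Zelda alone at 551 (3.01%). Of the genes with GAF alone, 2293 had no base of their TSS windows under a peak of either Zelda replicate, and of the genes with Zelda alone, 460 had none under a GAF peak. The remaining genes of the classes of 1 factor had a peak of the other in 1 replicate or in both. Where both replicates had one, these peaks did not reach the reciprocal overlap of 20%. The number with Zelda alone depended on the Zelda lists: it was 840 without replicate 1 of Zelda, 938 without replicate 2 and 1041 with peaks of either replicate. All 3 counts include Zelda peaks called in 1 replicate only, as the consensus step was dropped. Genes with both numbered 1880 with peaks of either replicate and 752 for peaks of at least 500 bp. The percentages of the consensus regions are the background for the gene lists that follow. Neighbouring genes can share a region, so list members are not independent, and the lists were chosen with results of these data known.

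Genes that pattern the anterior-posterior axis carried both factors almost throughout. All 10 gap and head gap genes, all 9 pair-rule genes and all 8 Hox genes had both, as did 10 of 12 segment polarity genes, where the background is 6.18%. The gap gene kni, a repressor in the posterior embryo, had 1978 and 2210 bp of its TSS windows under GAF peaks and 1877 and 1651 bp under Zelda peaks. For Kr, the gap gene of the central embryo, GAF peaks covered 1919 and 2001 of 2001 bp and Zelda peaks 1560 and 1328 bp. For hb, which is provided both maternally and zygotically, GAF covered 1920 and 2533 of 4002 bp and Zelda 1359 and 745 bp. In each of these 3 genes, which were named for their covered bases, the GAF lists covered more than the Zelda lists. At hkb, a terminal gap gene chosen after its values were seen, GAF covered 697 and 549 bp and Zelda 761 and 817 bp.

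Of the pair-rule genes, GAF covered 1466 and 1007 bp at run, a Runt domain gene, and Zelda 1547 and 1477 bp. At odd, a zinc finger gene, GAF covered 971 and 933 bp and Zelda 1112 and 1145 bp. At slp1, a forkhead gene, GAF covered 870 and 796 bp and Zelda 1220 and 1195 bp. Zelda lists thus covered more than GAF lists at all 3, while at slp2, the neighbour of slp1, the lists overlapped, with 950 and 1232 bp for GAF and 1163 and 787 bp for Zelda. At eve, a homeobox gene also chosen after its values were seen, GAF covered 1288 and 1048 bp and Zelda 830 and 797 bp.

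Among segment polarity genes, ptc, the Hedgehog receptor, was covered by GAF over the whole 2001 bp in both replicates and by Zelda over 599 and 610 bp. At en, the posterior compartment selector, GAF covered 1605 and 1593 bp and Zelda 625 and 822 bp. gsb-n was the 1 gene of the list with GAF alone, although 187 bp were under a Zelda peak in replicate 1. Of the Hox genes, Abd-B had 2431 and 2456 bp under GAF peaks and 1253 and 1215 bp under Zelda peaks, spread over 12006 bp of TSS windows. abd-A, its neighbour in the bithorax complex, had 1530 and 1390 bp under GAF peaks and 1432 and 1264 bp under Zelda peaks.

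Dorsal-ventral genes split more. Of 13 genes of mesoderm and ventral ectoderm, 10 had both factors (76.9%, against 6.18% of all genes), and sog, tin and if had GAF alone. At sog, an inhibitor of Dpp signalling in the lateral embryo, GAF covered 960 and 970 bp and Zelda nothing in either replicate. tin had 423 bp under a Zelda peak in replicate 1. Of 15 dorsal ectoderm genes, 9 had both, 2 (peb and cv-2) had GAF alone and 4 had Zelda alone, against a background of 3.01% for Zelda alone. peb had 698 bp under a Zelda peak in replicate 1. The 4 with Zelda alone were zen and zen2, homeobox genes of the dorsal embryo, Ance, a peptidase gene, and scw, a BMP ligand. At zen GAF covered nothing and Zelda 1169 and 1105 of 2001 bp. At Ance Zelda covered 771 and 749 bp, at scw 431 and 608 bp and at zen2 540 and 1246 bp, again with no GAF peak in either replicate. dpp, the BMP ligand that acts in the same tissue, had both factors, with 3394 and 3952 bp under GAF and 2255 and 2331 bp under Zelda.

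Genes of cellularisation were the clearest Zelda set among those listed. Of 11 genes of cellularisation and the cell cycle, 5 had Zelda alone (45.5%, against 3.01% of all genes). They were nullo, Sry-alpha, slam, bnk and halo. Another 3 had both and 1, fog, had GAF alone, with a Zelda peak over 404 bp in replicate 2. halo, which directs lipid droplet transport, had no base under GAF peaks and 1426 and 1375 of 2001 bp under Zelda peaks. slam, a regulator of membrane growth between nuclei, had 1321 and 888 of 3128 bp under Zelda peaks. bnk, whose upstream sequence is printed above, had 826 and 893 bp under Zelda peaks, and Sry-alpha 923 and 643 bp. None of these 5 genes had a base under a peak of either GAF replicate. The 3 with both were cell cycle regulators: Z600 and trbl, inhibitors of mitosis, and stg, the Cdc25 phosphatase. Z600 had all of its 2001 bp under GAF peaks in both replicates and 1397 and 1437 bp under Zelda peaks.

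Of 8 sex determination genes, 5 had both factors (62.5%, against 6.18% of all genes), 1 had Zelda alone and 2 had neither. The group includes the counters of X chromosomes in the early embryo. Sxl, the switch gene, run, sc, upd1 and dpn had both factors, and sisA, an X-linked signal element, had Zelda alone. At Sxl GAF covered 2921 and 2675 of 4989 bp and Zelda 2628 and 2025 bp. At sisA GAF covered nothing and Zelda 975 and 1036 of 2001 bp. The 2 genes supplied by the mother, da and her, had neither.

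Heat shock genes were at the other extreme. Of 15 found, 12 had GAF alone, where the background is 15.6%, and none had Zelda by consensus, although 1 Zelda list covered 520 bp at Hsp27 and the other 288 bp at Hsp68. The 12 genes lie in clusters and drew on 10 GAF regions. At Hsp22, a small heat shock protein, GAF covered 2020 and 1922 of 3067 bp. At Hsp70Ab it covered 1532 and 1542 of 2001 bp and at Hsp70Aa 1381 and 1443 bp, with no base under a Zelda peak at any of the 3. The Hsp70 genes are near-identical copies, and with reads filtered on mapping quality their counts as separate genes are uncertain. Hsp68, Hsp83 and Hsp60A had no consensus region of either factor.

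**Figure D4:**
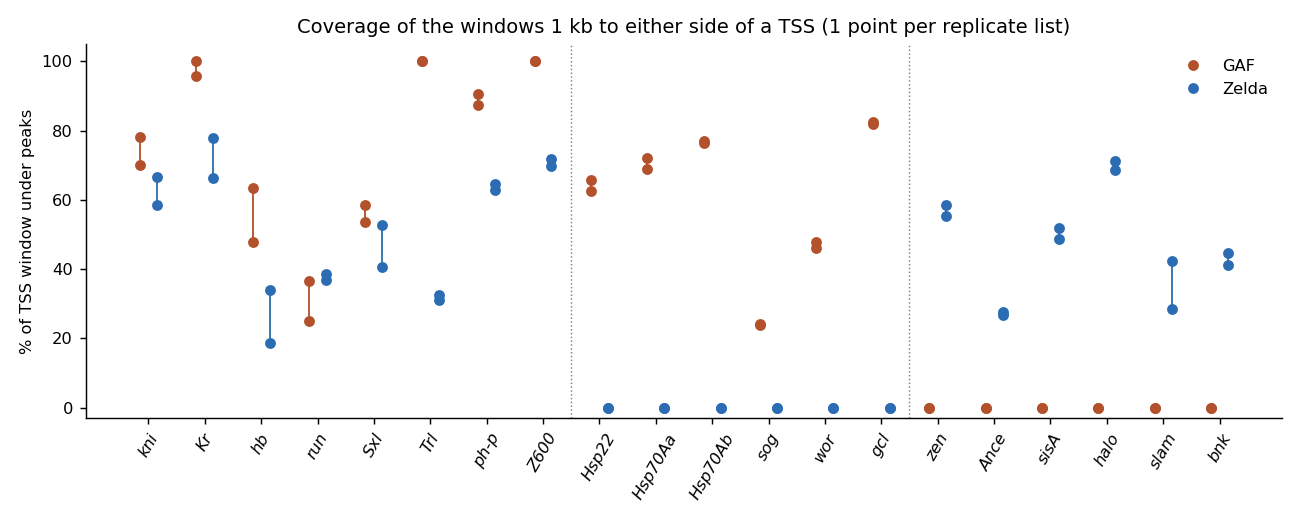
Percent of the TSS windows (1 kb to either side of each TSS) under peaks for 20 genes, with 1 point per replicate list, GAF left and Zelda right of each tick. Dotted lines divide genes with both factors, genes with GAF alone, where both Zelda points are at 0, and genes with Zelda alone, where both GAF points are at 0.

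Regulators of chromatin were listed by family. Of 10 genes for pioneer and GA-binding factors, 8 had both (80.0%, against 6.18% of all genes). They include zld and Trl, which encode Zelda and GAF themselves. At Trl GAF covered all of 4628 bp in both replicates and Zelda 1506 and 1439 bp. At lola GAF covered all of 6301 bp and Zelda 2980 and 3293 bp, and at psq, which encodes another GA-binding protein, GAF covered 6036 and 6279 of 7015 bp and Zelda 2959 and 2765 bp. grh had 6091 and 5532 bp under GAF and 3569 and 4888 bp under Zelda. Clamp had GAF alone by consensus, although a Zelda peak in replicate 1 covered 931 bp. bcd, a maternal gene, had neither.

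Of 12 Polycomb group genes, 4 had both factors (33.3%, against 6.18% of all genes) and 7 had neither (58.3%, against 75.2% of all genes). The 4 are 2 tandem pairs, ph-p with ph-d and Psc with Su(z)2, which encode subunits or relatives of Polycomb repressive complex 1. At ph-p GAF covered 3397 and 3275 of 3750 bp and Zelda 2417 and 2358 bp. At Psc GAF covered all of 2337 bp in both replicates and Zelda 1881 and 2337 bp. Pc itself had GAF alone, with 704 and 301 bp. The E(z), esc and Su(z)12 genes of Polycomb repressive complex 2 had no base under a peak of either factor.

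Neural precursor genes had both factors in 7 of 10. The proneural genes ac and sc carried GAF over 1629 and 1762 bp and over 1643 and 1538 bp, and Zelda over 809 and 1323 bp and over 695 and 595 bp. wor and scrt, Snail family genes, had GAF alone, although scrt had 386 bp under a Zelda peak in replicate 1. nerfin-1, a zinc finger gene, had Zelda alone with 620 and 842 bp. All 11 genes of the Enhancer of split complex, targets of Notch signalling, had both, where the background is 6.18%. The 14 GAF and 12 Zelda regions behind them lie in 1 gene cluster.

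Genes with maternal or general roles were listed next. Of 14 genes of germ plasm and maternal RNA clearance, 9 had neither factor (64.3%, against 75.2% of all genes), 3 had GAF alone (21.4%), 1 had Zelda alone and 1 had both. The 1 with both was brat, a translational repressor, with 5009 and 4413 bp under GAF and 1681 and 2143 bp under Zelda. gcl, which is needed for pole cell formation, had GAF alone with 1652 and 1637 bp. pum was counted as GAF alone, although each Zelda list had a peak in its windows (418 and 338 bp), because these 2 peaks did not form a consensus region. Of 92 cytoplasmic ribosomal protein genes 14 had GAF alone (15.2%), 5 had Zelda alone (5.43%) and 2 had both. Of 73 mitochondrial ribosomal protein genes 11 had GAF alone (15.1%), 1 had Zelda alone and none had both. Both GAF shares are close to the 15.6% of all genes. Of all genes, 3.01% had Zelda alone and 6.18% had both. Of 98 genes matched by cuticle protein symbols, 92 had neither (93.9%, against 75.2% of all genes). The 1 with both, Cpr, encodes a P450 reductase and not a cuticle protein.

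Small RNA and repeated genes were the last lists. Most tRNA and miRNA shares were close to those of all genes, which were 15.6% for GAF alone, 3.01% for Zelda alone and 6.18% for both. Of 295 tRNA genes 56 had GAF alone (19.0%), 11 Zelda alone (3.73%) and 11 both (3.73%). Of 260 miRNA genes 34 had GAF alone (13.1%), 10 Zelda alone (3.85%) and 14 both (5.38%). The Zelda set included mir-5, mir-6-1, mir-6-2 and mir-6-3, members of the mir-309 cluster that promotes clearance of maternal mRNA, and no base of their windows was under a GAF peak, while all 2001 bp of each were under Zelda peaks in both replicates. These 4 genes lie within 1 cluster and count as 1 place. Of 111 replication-dependent histone genes 98 had both factors, but these are near-identical tandem copies in which reads are hard to place, and their assignment is uncertain.

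**Figure D5:**
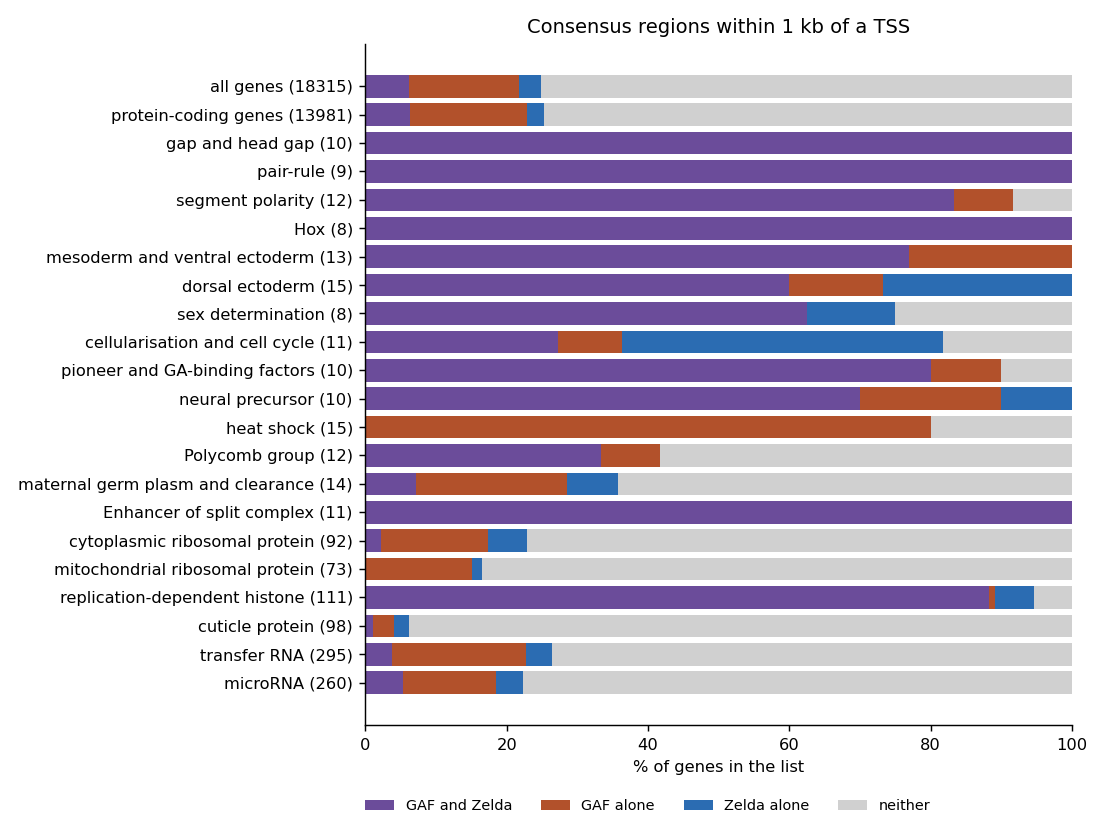
Share of genes in each list (number of genes in brackets) with consensus regions of GAF and Zelda, GAF alone, Zelda alone or neither within 1 kb of a TSS; the horizontal axis is percent of the list. Both factors are at all genes of the gap, pair-rule, Hox and Enhancer of split lists, GAF alone is at 80.0% of heat shock genes, and Zelda alone is at 45.5% of genes of cellularisation and the cell cycle, against 6.18%, 15.6% and 3.01% of all genes.

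The widest regions of each class were examined for position and motifs, here and below on the arms 2L, 3L, 3R, 4 and X only. Regions on 2R were left out of this choice. The widest region of GAF alone spanned 26591 bp (chrX:3671476-3698066), centred in an intron of Mnt, which encodes a Max-binding repressor, and held 165 GAGAG. The GAF peaks there summed to 26571 and 26307 bp in the 2 replicates, with no Zelda peak in either. The next ones were centred in an intron of Hr4 (12153 bp, 43 GAGAG), a nuclear receptor gene, and in a 5′ UTR of CHES-1-like (9821 bp, 71 GAGAG), a forkhead gene. All 3 lie on the X, among the arms considered.

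The widest shared regions were GAF domains with a narrower Zelda part. In an intron of Tlk, a kinase gene, a region of 13012 bp (chrX:3737847-3750858) met GAF peaks of 13012 and 12975 bp in the 2 replicates and Zelda peaks of 2993 and 2250 bp in sum. In brat (chr2L:19154614-19167037) GAF peaks summed to 12125 and 11558 bp and Zelda peaks to 7011 and 6842 bp. The region of l(3)neo38 (chr3R:11770232-11782564) had GAF peaks of 12293 and 11965 bp and Zelda peaks of 5642 and 5035 bp in sum.

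The widest regions of Zelda alone were shorter. One of 3614 bp (chr3L:8664118-8667731) was intergenic, 9834 bp from the TSS of hry, the pair-rule gene hairy, and held 5 GAGAG and 1 CAGGTA. It met no GAF peak, and the Zelda peaks there summed to 2981 and 3216 bp. One of 3229 bp (chr2L:9987422-9990650) lay in an intron of bib, a gene of neurogenesis, with 4 CAGGTA, and one of 3201 bp (chr3L:11342313-11345513) was intergenic with 3 CAGGTA. None of the 3 was centred within 1 kb of a TSS.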

How the data were processed

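Peak lists of 4 wild-type ChIP-seq samples (GAF and Zelda, 2 replicates each) were compared, with 10 further lists at the side. Groups and replicate numbers came from the sample titles. As the authors' methods and processing notes describe it, reads were trimmed (Trimmomatic 0.39), mapped to dm6 (Bowtie2 2.2.5), filtered at mapping quality 30 (SAMtools 1.18, sambamba 0.8.2) and each replicate's peaks were called on their own (MACS2 2.2.7.1, q-value threshold 0.01). The use of an input in calling is not given in the sources used here. The deposited lists hold 3 columns, chromosome, start and end, with no score. Depth is unknown, so no counting interval is given, and a list depends on depth and antibody as well as on binding, which cannot be told apart. GAF and Zelda inputs are titled together, 1 per replicate number.

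Consensus regions needed a reciprocal overlap of 20%. TSS (23732) and genes (18315) were from Ensembl release 115, sequence from RefSeq. Motifs were searched on both strands within 100 bp of midpoints, with control windows 2 kb away. Each of 13 measures was compared over lists by an exact permutation test with Benjamini-Hochberg adjustment (Python 3.11.15, numpy 2.4.6). Functions were tested on simulated data. Alternatives covered overlap rule, width, list length, chromosome arms, windows, motifs, genotypes and left-out replicates. Up to 4 genes per list and class with the most covered bases, and the 3 widest regions per class, were named. Regions to be named or printed were sought on the arms 2L, 3L, 3R, 4 and X only. Those to be printed also had to lie outside annotated UTRs. Other genes are named to complete a list or to give its exceptions. Of the genes listed by symbol, 2 had no match. The members and lists were chosen with earlier results of these data known.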

Additional observations from a re-analysis of the deposited data

How the results depend on the processing

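With mutant lists added (4 lists against 4), 10 GAF minus Zelda differences passed the adjusted threshold that 2 against 2 cannot reach: 0.48 for log2 peak number, 14.1 percentage points for the promoter share, 127 bp for width, -1018 bp for TSS distance, 4.83 and -8.72 percentage points for the intron and intergenic shares, 5.71 for the X share, 18.4 for GAGAG, -6.95 for CAGGTA and -13.2 for HIRA. With the replicate number as a block, differences were as before (15.3 percentage points for the promoter share) and the smallest possible p was 0.5. GAF and Zelda share 1 titled input per replicate number, so same-numbered libraries may come from the same chromatin, which the labels do not state. Deviations of same-numbered lists had a correlation of 0.0349, and whether the numbers pair the samples was not settled by it.

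Directions held under all alternatives except for RNA Pol II-Ser5P overlap, which was 2.39 percentage points higher for GAF, and dPCIF1 overlap. The first was -1.11 for peaks of at least 500 bp, -7.44 with an overlap of 1 bp, and -0.169 to 4.96 with replicates left out. The second was 2.00 when lists were cut to the same number of widest peaks. The causes were not tested.

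GAF regions with Zelda were 24.5% with an overlap of 1 bp, 10.5% with a reciprocal overlap of 50%, 25.9% with peaks of either replicate, 17.8% for peaks of at least 500 bp, 23.8% at equal list length and 17.9% to 24.6% with replicates left out. Zelda regions with GAF were 52.1%, 21.3%, 32.4% and, at equal length, 32.3%, with 26.0% to 43.9% when replicates were left out. Genes with Zelda alone numbered 1041 with peaks of either replicate and 501 to 938 with replicates left out (840 without Zelda replicate 1, 938 without Zelda replicate 2), and genes with both 1880 with peaks of either replicate and 752 for peaks of at least 500 bp. Hexamers higher in GAF and Zelda numbered 12 and 23 with a window of 250 bp to either side, and 118 were higher in Zelda for peaks of at least 500 bp. For overlaps and genes, leaving out a replicate meant using every peak of the factor's other list, without the consensus step. Depth is unknown and sets no limit that could be given.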
